A study of Mus musculus with 4 samples.

Results

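The miR-297, miR-466, miR-467 and miR-669 families are groups of mouse microRNAs (miRNA) whose members resemble each other closely. They were taken here by name, as every listed mature miRNA whose name is mmu-miR-297, mmu-miR-466, mmu-miR-467 or mmu-miR-669 with any letter, copy number or arm, which gave 80 members of 1966 listed miRNA. Of these, 6 belonged to miR-297, 31 to miR-466, 13 to miR-467 and 30 to miR-669. Small RNA was sequenced from primary cortical neurons of mouse embryos, taken at embryonic day 16 by the methods and less than 1 day later by the labels, and kept for 5 days in vitro in serum-free differentiating medium without treatment. The comparison was between WT neurons and TgAD neurons, 2 libraries each. TgAD neurons come from the strain B6C3-Tg APPswe, PSEN1dE9 85Dbo/J and carry a chimeric mouse/human APP with the Swedish mutations and a human presenilin 1 without exon 9, with expression from prion promoter elements that is strongest in brain neurons. Neurons of each embryo were cultured separately and genotyped afterwards, and the sex of the embryos is not given in the sources used here.

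A miRNA is cut from a hairpin in a longer transcript, and either side of the hairpin, the 5p or the 3p arm, can give the mature strand that guides Argonaute to target mRNA through its seed, bases 2 to 8. Most hairpins of these families form a rodent-specific cluster within an intron of Sfmbt2, a polycomb group gene that is imprinted and expressed from the paternal copy. The cluster is known for its expression in the placenta and in embryonic stem cells. Its hairpins arose by tandem duplication and are rich in repeats of UG on one arm and of CA on the other, so reads from one member can match another.

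By the GENCODE M21 annotation (mouse build GRCm38), the 80 names belonged to 81 hairpins. Sfmbt2 (ENSMUSG00000061186.15) runs from 10370510 to 10595253 on the plus strand of chromosome 2 and held 71 of them, from Mir466m at 10466663 to Mir669h ending at 10518279, a span of 51.6 kb. All 71 lay between 10461473 and 10523944, which is intron 10 of one annotated transcript and intron 11 of the other, and 0 overlapped an exon. The other 10 hairpins were spread over 7 chromosomes. In all, 71 of the 80 names had a hairpin in Sfmbt2 and 9 did not.

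Mature sequences from RefSeq (GRCm38.p6) were matched for 8 members, all of them outside Sfmbt2. They are shown to make visible the dinucleotide repeats these families are known for, with the seed in capitals.
miR-466q: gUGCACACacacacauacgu
miR-466i-3p: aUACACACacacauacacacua
miR-466j: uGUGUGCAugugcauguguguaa
miR-466k: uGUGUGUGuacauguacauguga
miR-467f: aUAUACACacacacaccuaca
miR-467g: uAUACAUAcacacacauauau
miR-467h: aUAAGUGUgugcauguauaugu
miR-669n: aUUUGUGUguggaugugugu
miR-466q lies at chr3:28419988-28420007 on the plus strand, within Tnik and outside its annotated exons, and miR-467f at chr11:69635419-69635439 on the minus strand. In both, 12 bases in a row alternate between A and C, and the shortest such run of AC or UG among the 8 sequences was 7 bases. No seed occurred in more than 1 of the 8, so members that share a family number did not share a seed here. miR-466q was the only one of the 8 with reads, and no other listed miRNA with a RefSeq sequence had its seed.

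Depth was 2070204 and 2752599 miRNA reads for WT and 2758525 and 4811010 for TgAD. A count of 3 reads, taken as the floor of detection, corresponds to 0.624 to 1.45 RPM (reads per 1000000 miRNA reads of the library) in these libraries, and floors and intervals cover counting error only. Of the 7 neuronal miRNA 6 had at least 10 reads, and they summed to 24639 and 37567 RPM in WT and 86137 and 52104 RPM in TgAD, most of it miR-128-3p, while miR-124-3p had 1 to 7 reads per library and miR-9-5p had 0 in all. Oligodendrocyte markers were at 0 (3 of 3). Of the 6 markers of blood and immune cells 5 had at least 10 reads, and they summed to 1530 and 1435 RPM in WT and 1012 and 571 RPM in TgAD, mostly miR-451a of red blood cells, with miR-142a-3p at 0. Of the 5 markers of vessels and mesenchyme 2 had at least 10 reads, and they summed to 1023 and 760 RPM in WT and 822 and 632 RPM in TgAD, with miR-126a-3p, miR-126a-5p and miR-199a-3p at 0. The 16 listed miRNA of the miR-290 and miR-302 groups, markers of pluripotent cells, summed to 2.90 to 6.90 RPM.

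Before the values of the members are given, a conflict between the deposited tables has to be stated. The table of normalized values has 1 column per library, and whole reads could be recovered from it. Its column named WT_1 held the reads of the library labelled TgAD replicate 1 in 100% of the 674 miRNA it lists, its column WT_2 those of the library labelled WT replicate 1, and its column TR_1 those of the library labelled TgAD replicate 2. The column TR_2 matched none of the 4 count tables. Genotypes below are those of the sample labels, and the values obtained with the reads and column names of the normalized table are given beside the results that they change.

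Few members were detected. Over the 4 libraries, 58 of the 80 had 0 reads and 22 had at least 1 read, with 11 reaching 10 reads and 9 seen in every library. Among all other listed miRNA, 682 of 1886 (36.2%) had at least 10 reads, against 13.8% of the members. The members summed to 377 and 493 reads for WT and to 508 and 739 reads for TgAD. In RPM this was 182 (95% Wilson interval 165 to 201) and 179 (164 to 196) in WT, and 184 (169 to 201) and 154 (143 to 165) in TgAD.

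**Figure D1:**
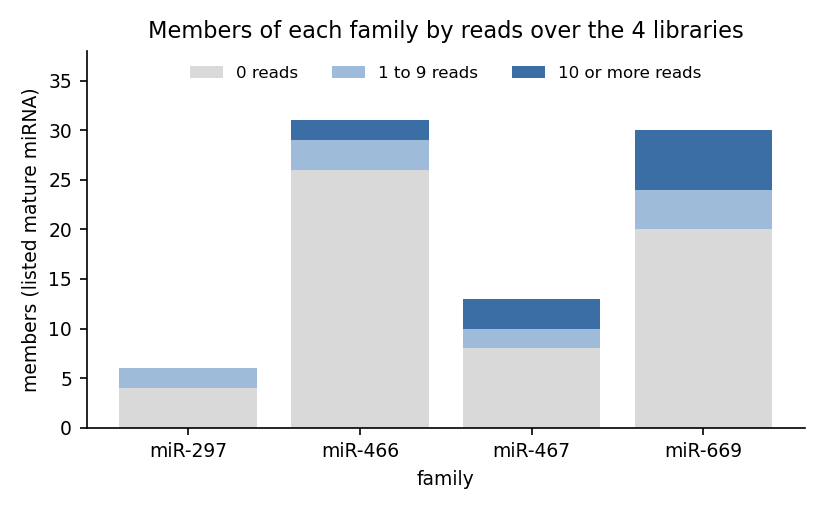
Members of each family on the x axis by the number of reads over the 4 libraries, stacked as 0 reads (grey), 1 to 9 reads (light blue) and 10 or more reads (dark blue). Members with 0 reads make up most of each family, and none of the 6 miR-297 members reached 10 reads.

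The families differed in how many members were seen. In miR-669, 6 of 30 members had at least 10 reads, in miR-467 it was 3 of 13, in miR-466 it was 2 of 31 and in miR-297 it was 0 of 6. The highest member of miR-297, miR-297b-5p, had 0 reads in WT replicate 1 and 1 read in each other library. A single member, miR-669c-5p, held 53.5% of all member reads, and together with miR-467e-5p and miR-466q it held 78.6%. The 11 members with at least 10 reads held 98.3%.

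Both arms of a hairpin are listed for most members, and reads were found mainly on one of them. Of 33 listed 5p members 7 had at least 10 reads, and these 33 summed to 1833 reads. Of 35 listed 3p members 3 had at least 10 reads, and they summed to 69 reads. The remaining 12 members are listed without an arm, and the 215 reads among them were all of miR-466q. In miR-467, 2 of 450 reads were on 3p arms, 0.444% (95% Wilson interval 0.122 to 1.61). In miR-669 the share was 3.09% (2.31 to 4.12), and by library it was 4.94% and 3.74% in WT and 0.949% and 3.01% in TgAD. Without miR-669c-5p, the 3p share of miR-669 was 15.0%. In miR-466, in contrast, all 22 reads with an arm were on 3p arms (95% Wilson interval 85.1 to 100%).

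The hairpin of miR-669e was the only one with at least 10 reads on both arms. Its 5p strand was counted 33 and 22 times in WT and 16 and 30 times in TgAD, and its 3p strand 4 and 7 times in WT and 2 and 9 times in TgAD. The 5p strand was the higher one in each of the 4 libraries. The other 3p strands with at least 10 reads were miR-669a-3-3p, with 6 and 4 reads in WT and 0 and 4 in TgAD, and miR-466l-3p, with 0 and 4 reads in WT and 5 and 1 in TgAD. Neither passed the filter on low counts used for the test below. In the fit that kept every miRNA with a read, the adjusted p by edgeR was 0.455 for miR-669a-3-3p and 0.948 for miR-466l-3p.

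The members in the Sfmbt2 cluster with at least 10 reads lay at both its ends. The middle of the cluster, from the first to the last of the 10 copies of Mir467a, covers 105.8 to 132.8 kb from the annotated start of Sfmbt2 and holds 33 member hairpins. This division was chosen after the values were seen. Of the members annotated at a single hairpin, 18 lay upstream of that stretch and 5 of these had at least 10 reads, with 301 reads in all. Downstream, 5 of 28 had at least 10 reads, with 1587 reads in all. Within the stretch, 0 of 6 reached 10 reads, and they summed to 3 reads.

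Upstream lay Mir669e (10467495 to 10467613), Mir669l (10468971 to 10469068), Mir467c (10473931 to 10474027) and Mir669a-3 (10474433 to 10474541). Downstream lay Mir467e (10505721 to 10505807), Mir467d (10507630 to 10507714), Mir669c (10509296 to 10509404), Mir669o (10514300 to 10514395) and Mir466l (10516097 to 10516217). By library, the upstream members summed to 66 and 62 reads in WT and 52 and 121 in TgAD, and the downstream members to 260 and 366 in WT and 401 and 560 in TgAD.

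**Figure D2:**
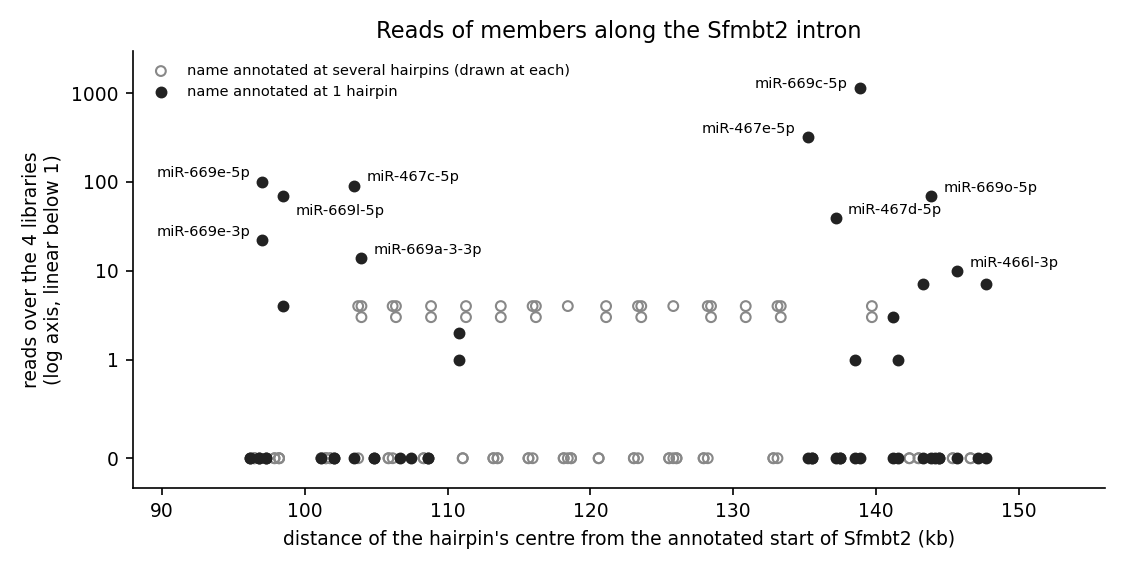
Reads over the 4 libraries (y axis, log scale that is linear below 1) of each member with a hairpin in Sfmbt2, against the distance of that hairpin from the annotated start of the gene in kb (x axis). Filled points are members annotated at 1 hairpin, open points are members annotated at several hairpins and drawn at each. The 10 labelled members with at least 10 reads sit at both ends, and the open points do not exceed 4 reads.

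Near-identical copies bear on all of these counts, because it is not stated how reads that fit several places were counted. Names annotated at several hairpins had almost no reads. There were 19 such members by name, among them miR-669a with 12 hairpins, miR-467a with 10 and miR-466b with 8. At Mir669a-3 and Mir669d-2, matching by name placed a copy-specific 3p name beside the general one. The hairpins of miR-669a-3p and miR-669d-3p may therefore be overcounted. None of the 19 reached 10 reads, and the highest, miR-466b-3p and miR-669a-3p, had 4 reads each. All 11 members with at least 10 reads were annotated at 1 hairpin, out of 61 such members. Among the other listed miRNA, 17 of the 51 names with several hairpins (33.3%) reached 10 reads, against 37.3% of the 1712 names with 1 hairpin. The marker miRNA went both ways. Those with 2 hairpins and reads were miR-128-3p, miR-138-5p (2616 to 3885 reads per library), miR-218-5p (2237 to 6560) and miR-129-5p (5 to 17). In contrast, miR-9-5p with 3, miR-219a-5p with 2 and miR-199a-3p with 2 had 0. Some markers with 1 hairpin, such as miR-338-3p and miR-126a-3p, also had 0. The part of read assignment in the low counts of these members was not tested.

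Sequence sharing went beyond names. For each member, the mature sequence where given, otherwise the side of the hairpin that holds its arm, or the whole hairpin for the 5 members listed without arm or sequence, was compared with all other annotated miRNA hairpins on both strands. An exact stretch of at least 20 nucleotides was shared with another locus by 67 of the 80 members, of which 8 had at least 10 reads. Of the 13 that shared none, 3 had at least 10 reads. Since a side of a hairpin is longer than the mature strand, a shared stretch can lie partly or wholly outside it.

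For miR-669c-5p the arm shared such a stretch with 45 other hairpins, among them all 12 copies of Mir669a. The arms of miR-669o-5p and miR-669l-5p shared one with 55 and 26 hairpins. The arms of miR-467c-5p and miR-467e-5p each shared one with 3 hairpins, including that of the other, and the arm of miR-467d-5p with 12, which included all 10 copies of Mir467a and Mir467b. The source of the counts of these 6 members is not settled by this comparison, since their arms and not their mature sequences were compared. The arms of miR-669e-5p and miR-466l-3p shared no stretch of 20 nucleotides with any other annotated hairpin. Nor did miR-466q, but it was compared by its mature sequence of 20 nucleotides, where only a copy of the whole could count. Its longest shared stretch was 18 nucleotides, so it is not set apart from the other members by this comparison.

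To compare WT with TgAD, edgeR's quasi-likelihood test was fitted to the counts of all miRNA that passed its filter on low counts, with TMM normalization (a scaling that is robust to a few very abundant miRNA) and Benjamini-Hochberg adjustment. Of the 496 miRNA tested, 8 were members, and a call required a log2 fold change over 0.6 and an adjusted p under 0.1. Of the 8, 2 passed, miR-467c-5p and miR-467d-5p, both higher in the libraries labelled TgAD. Over all tested miRNA 33.1% passed this rule, 15.7% in the higher direction, and with only 8 members tested a count of 2 is not read as a result about the families. Both called members met the filter on low counts through their TgAD libraries, so the filter and the direction of these calls are not independent. In WT miR-467c-5p had 5 and 12 reads and miR-467d-5p 3 and 1, against 22 and 52 and 15 and 20 in TgAD. Between the same libraries the summed neuronal markers were also higher in both TgAD libraries, through miR-128-3p. In contrast, miR-138-5p (1877 and 1296 RPM in WT, 1207 and 544 in TgAD) and miR-153-3p (666 and 504, 490 and 272) were lower in RPM. Unlike the CPM of the members, these marker values are not scaled by TMM. The TMM factors were 1.14 and 1.06 in WT and 0.995 and 0.836 in TgAD. Division by them raises TgAD values relative to WT, so the lower marker values depend on the scale. miR-124-3p was higher on 1 to 7 reads per library, and miR-218-5p and miR-129-5p overlapped. The summed markers of blood were lower through miR-451a, while miR-155-5p and miR-150-5p overlapped. On few reads, miR-142a-5p (21 to 51 per library) and miR-223-3p (3 to 8) were higher. The part of such differences in the values of the members was not tested. At the stricter cutoffs of 1 and 0.01, 4.44% of all tested miRNA passed and 0 of the 8 members, although 2 had an unadjusted p under 0.05 by edgeR. The median log2 fold change was 0.21 over the 8 members and 0.03 over all tested miRNA. The CPM (counts per 1000000 reads after TMM) of the genotypes did not overlap for 5 of the 8 members, against 63.1% of all tested miRNA. With 2 libraries per genotype, p values rest on the spread between these few cultures, estimated for each miRNA with help from all other tested miRNA.

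For miR-467c-5p, WT gave 5 and 12 reads and TgAD gave 22 and 52. Its CPM was 2.13 and 4.12 in WT and 8.02 and 12.9 in TgAD, so both TgAD libraries lay above both WT libraries. The log2 fold change was 1.72 ± 0.49 (SE, n = 2 per genotype) with an adjusted p of 0.0454 by edgeR. It stayed past the cutoffs without WT replicate 2 (adjusted p = 0.0373 by edgeR) and without TgAD replicate 1 (0.0807), but not without WT replicate 1 (0.196) or without TgAD replicate 2 (0.212). DESeq2 gave a log2 fold change of 1.71 with an adjusted p of 0.126. With the reads and column names of the normalized table it was 0.98 with an adjusted p of 0.649 by edgeR.

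For miR-467d-5p, WT gave 3 reads and 1 read, at or under the floor, and TgAD gave 15 and 20. The pooled ratio of TgAD to WT, scaled by the TMM library sizes, was 6.80 with a counting interval of 2.43 to 26.4 (exact, 95%). The fitted log2 fold change, which depends on the added prior count at such low values, was 2.70 ± 0.65 (SE, n = 2 per genotype) with an adjusted p of 0.0317 by edgeR. It passed without WT replicate 1 (log2 fold change 3.79, adjusted p = 0.0412 by edgeR) and without TgAD replicate 2 (0.0813), but not without WT replicate 2 (1.98, adjusted p = 0.178 by edgeR) or without TgAD replicate 1 (0.108), and DESeq2 gave it no adjusted p. With the reads and column names of the normalized table its log2 fold change was -0.17 (adjusted p = 0.951 by edgeR), the opposite direction. There, the columns named WT hold 15 and 3 of its reads and the columns named TR 20 and 0. This setting changes the reads as well as the names, since the column TR_2 matched none of the count tables and the reads of WT replicate 2 matched none of the columns.

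miR-467e-5p, the third tested member of this family, was counted 55 and 66 times in WT and 92 and 104 times in TgAD. Its CPM of 23.4 and 22.7 in WT lay below the 33.5 and 25.9 of TgAD, yet the log2 fold change of 0.36 ± 0.27 (SE, n = 2 per genotype) did not pass (adjusted p = 0.381 by edgeR). With the reads and column names of the normalized table its value was -0.50.

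In miR-669, none of the 4 tested members passed. miR-669c-5p, the most abundant of all 80, was counted 191 and 269 times in WT and 266 and 407 times in TgAD. Its CPM of 81.3 and 92.4 in WT lay just below the 96.9 and 101 of TgAD, with a log2 fold change of 0.19 ± 0.22 (SE, adjusted p = 0.556 by edgeR), which was -0.07 with total counts as library size. miR-669e-5p had a CPM of 14.0 and 7.56 in WT and of 5.83 and 7.46 in TgAD, a log2 fold change of -0.67 ± 0.43 (SE, adjusted p = 0.315 by edgeR). One WT library stood well above the other 3, and without it, WT replicate 1, the value was -0.16.

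The remaining 2 tested miR-669 members overlapped between genotypes. miR-669l-5p was counted 17 times in each WT library and 11 and 24 times in TgAD, a log2 fold change of -0.35 ± 0.41 (SE, adjusted p = 0.565 by edgeR). miR-669o-5p was counted 6 and 22 times in WT and 18 and 23 times in TgAD, with a value of 0.23 ± 0.54 (SE, adjusted p = 0.784 by edgeR). Its low WT count was that of WT replicate 1, without which the value turned to -0.29.

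miR-466q was the only tested member of miR-466 and the only member outside Sfmbt2 with reads. It was counted 49 and 56 times in WT and 53 and 57 times in TgAD, nearly the same number in libraries whose totals differ by more than 2-fold. Its CPM was 20.9 and 19.2 in WT and 19.3 and 14.2 in TgAD, and the log2 fold change of -0.27 ± 0.30 (SE, adjusted p = 0.551 by edgeR) did not pass. It was 0.25 with the reads and column names of the normalized table.

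**Figure D3:**
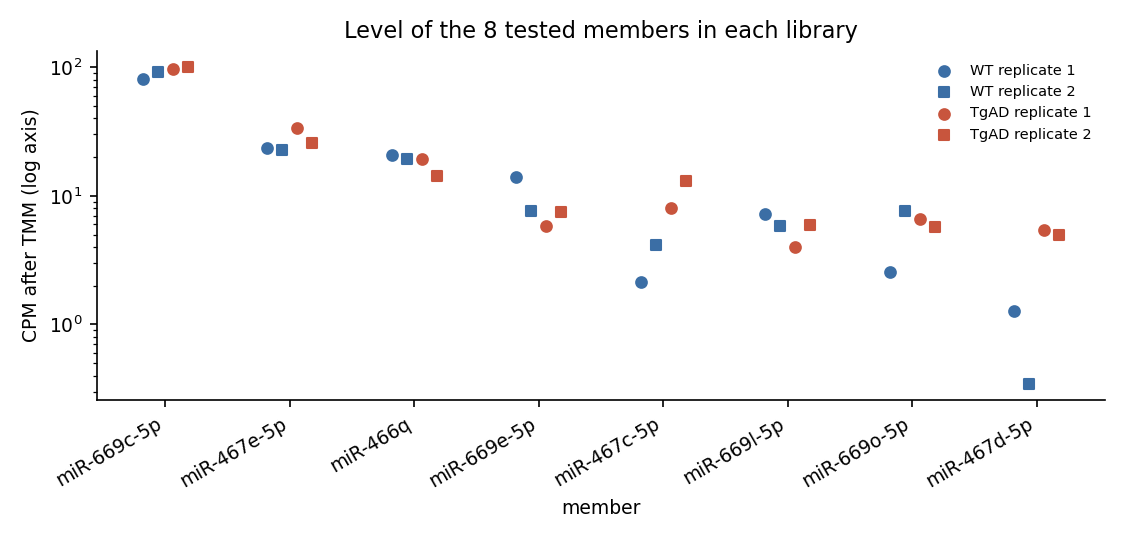
CPM after TMM normalization (y axis, log scale) of the 8 tested members in each of the 4 libraries, blue for WT and red for TgAD, circles for replicate 1 and squares for replicate 2. The red points of miR-467c-5p and miR-467d-5p lie above both blue points, and in miR-466q, miR-669l-5p and miR-669o-5p the colours overlap.

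**Figure D4:**
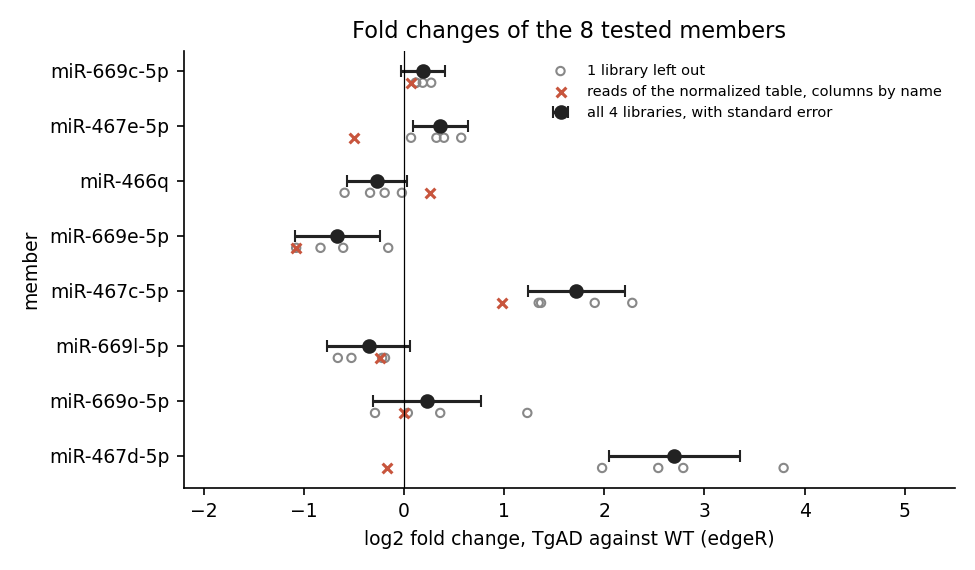
Log2 fold change of TgAD against WT (x axis) for the 8 tested members, with all 4 libraries and the standard error (black), with 1 library left out (grey circles) and with the reads and column names of the normalized table (red crosses). miR-467c-5p and miR-467d-5p stay above 0 with any library left out, while the red cross of miR-467d-5p lies at -0.17.

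Summed over its members, miR-467 had a CPM of 26.8 and 27.8 in WT and of 47.4 and 43.8 in TgAD, a mean of 27.3 ± 0.71 against 45.6 ± 2.56 (SD, n = 2). The log2 ratio was 0.74, and 0.48 with total counts in place of TMM. The sum includes the 2 called members, miR-467c-5p (mean CPM 3.12 in WT, 10.5 in TgAD) and miR-467d-5p (0.81 and 5.22). Beside them stands miR-467e-5p (23.0 and 29.7), which did not pass. Of all single tested miRNA, 63.1% also did not overlap between the genotypes. With the reads and column names of the normalized table the sum was 41.8 and 24.3 in the columns named WT and 38.9 and 18.5 in those named TR, so that the groups overlapped and the log2 ratio was -0.20. The log2 ratios of miR-466 and miR-669 were 0.29 and -0.04 in that setting. In miR-669 the sum was 112 and 120 in WT and 115 and 124 in TgAD, so the libraries overlapped, and the log2 ratio of 0.05 became -0.22 with total counts. In miR-466 the sum was 21.7 and 21.6 in WT and 21.9 and 15.7 in TgAD, a log2 ratio of -0.21 that was 0.01 without TgAD replicate 2. The change of scaling from TMM to total counts moved the median log2 fold change of all tested miRNA from 0.03 to -0.23, and the sums of miR-466, miR-467 and miR-669 moved in the same direction. These sums were not tested, and miR-297, with 4 reads in all, gives no ratio.

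**Figure D5:**
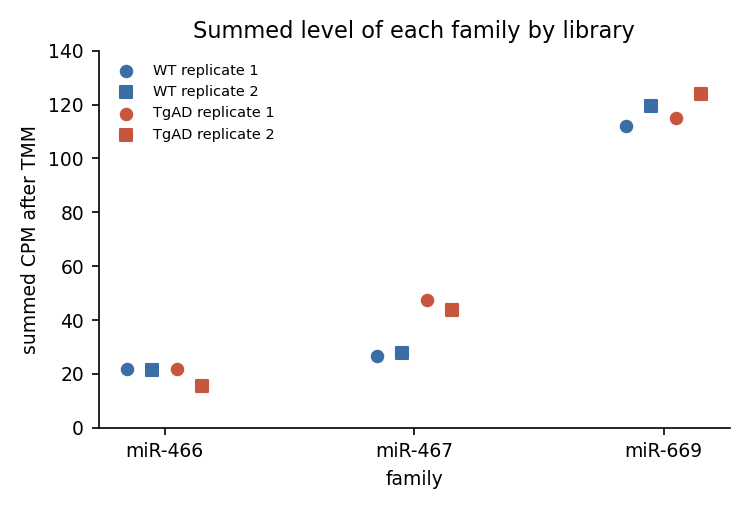
Summed CPM after TMM normalization (y axis) of the miR-466, miR-467 and miR-669 families in each library, blue for WT and red for TgAD, circles for replicate 1 and squares for replicate 2. By the sample labels, the libraries separate by genotype in miR-467, with 26.8 and 27.8 against 47.4 and 43.8, and overlap in miR-466 and miR-669. Of all single tested miRNA, 63.1% also did not overlap. With the reads and column names of the normalized table (not drawn), the groups overlap in miR-467 as well.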

How the data were processed

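Counts were deposited by the authors for each library as whole reads per mature miRNA, made from adapter-trimmed reads mapped without mismatch to GRCm38 with Bowtie2 and counted with HTSeq-count on the miRBase annotation. Reads without mismatch but with several matching places may have been dropped or assigned, which is not given in the sources used here. A second table deposited by the authors holds a normalized signal, on which each library's counts appear divided by its own size factor. There 100% of values were whole multiples of 1 read (within 0.01 reads), and these reads were used in 1 alternative.

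Counts were analysed with edgeR 4.0.16 in R 4.3.3 (TMM, filterByExpr, quasi-likelihood test without the robust option, genotype as the only factor), and DESeq2 1.42.0 was an alternative. The standard error is the log2 fold change divided by the square root of F. The test was run on counts simulated for this comparison (489 miRNA tested), where it called 73.6% of 87 miRNA changed 2-fold, 100% of 111 changed 4-fold and 2.75% of 291 unchanged. The simulated miRNA had the levels of all tested miRNA and a spread taken from the trend of the same fit. These rates therefore do not carry over to members of few reads. GENCODE M21 gave the hairpins, found by name for all 80 members and for 1843 of the 1966 miRNA in the tables.

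Members that passed the filter were named with their test, members with at least 10 reads by their counts, and the top member of each family in any case. The members and lists were chosen with earlier results of these data known.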

Additional observations from a re-analysis of the deposited data

How the results depend on the processing

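The count of 2 called members was 2 with the robust option, total counts, RLE normalization, every miRNA with a read and the replicate block. It was 1 without any 1 of the libraries (from 1 to 1). It was 0 with at least 10 reads in every library, which left neither miR-467c-5p nor miR-467d-5p in the test (edgeR, 0 of 5 tested members at an unadjusted p under 0.05), 0 with DESeq2 (2 at an unadjusted p under 0.05), 0 at the cutoffs of 1 and 0.01 (2 by edgeR), and 0 with the reads and column names of the normalized table, where 0 of 480 tested miRNA passed (0 members at an unadjusted p under 0.05 by edgeR). Replicate numbers correlated between genotypes in their deviations (r = 0.22 over 496 miRNA), but only 2 pairs exist and no label ties them, so the replicate block stands here alone, and it changed no call among the members. Of 92 refitted log2 fold changes of single members, 6 changed sign: with the reads and column names of the normalized table miR-466q (0.25), miR-467d-5p (-0.17) and miR-467e-5p (-0.50), with total counts miR-669c-5p (-0.071) and miR-669o-5p (-0.018), and without WT replicate 1 miR-669o-5p (-0.29, with 1.23 as the highest value when 1 library was left out).

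Members with at least 10 reads numbered 11, against 22 with at least 1 read, 5 with at least 10 reads in every library, and 10 when any 1 library was left out. With total counts the summed log2 ratio was 0.48 for miR-467 and -0.22 for miR-669. With the reads and column names of the normalized table, tried after the data were seen, it was 0.29 for miR-466, -0.20 for miR-467 and -0.038 for miR-669. Leaving out 1 library gave -0.47 to 0.013 for miR-466, 0.68 to 0.79 for miR-467 and -0.01 to 0.10 for miR-669. Without its top member the 3p share of miR-669 was 15.0%. The whole mature sequence of miR-466q was in no other hairpin, but without its last 2 bases it was. This could be done only for the 8 members with a mature sequence, of which miR-466q alone had reads. For hairpin arms, compared after the data were seen, 18 members with reads shared 20 nucleotides, 19 shared 18, 18 shared 22, and 3 had names at several hairpins. Depth limits the members under 10 reads, where a difference between genotypes was not detectable.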

Other observations

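The column TR_2 of the normalized table, which matched none of the 4 count tables, held 1926952 reads over 674 miRNA and 198 reads of members. Of these, 113 were of miR-669c-5p, 46 of miR-466q, 18 of miR-467e-5p, 9 of miR-467c-5p and 0 of miR-467d-5p. miR-669e-3p had 3 reads and miR-669e-5p had 1 in this column, both at or under the floor of 3 reads. Their order was the reverse of that in the 4 count tables, but counts this low do not establish an order of the arms.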
